A study of Homo sapiens with 12 samples.

Results

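The interferon response genes described here are 42 genes that interferons are known to switch on, from ISG15, MX1 and the IFIT and OAS families to BST2 and USP18. They were taken as the rows of the count table whose Ensembl identifier maps to a listed symbol, 42 rows of 62656. All 42 passed the filter on low counts, as did 17470 genes in all. The RNA came from a conditionally immortalized human podocyte line, a model of the filtration-barrier cells of the glomerulus, whose cells all hold SV40 large-T antigen in a temperature-sensitive form. Cells were held at 37 °C for 12 days to differentiate. They carried a doxycycline-inducible (Tet-On) construct for either eGFP (pCW-eGFP, the control) or FLAG-tagged YAP5SA sent to the nucleus by a localization signal (pCW-(FLAG-NLS-)YAP5SA). YAP5SA is a form of the co-activator YAP that escapes inhibition by the Hippo kinases. Each line was studied untreated and after 24 hours of doxycycline at 0.1 µg/ml, which makes 4 groups of 3 libraries. The labels name 1 stable line for each construct, so construct and line cannot be told apart when the lines are compared. They number the libraries 1 to 3 in each group without saying whether each had its own culture. The p-values below therefore speak to the spread among these libraries, which may be technical.

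Type I interferons bind a receptor of IFNAR1 and IFNAR2, whose kinases JAK1 and TYK2 phosphorylate STAT proteins. STAT2 then works with IRF9 in the factor ISGF3, which binds a short element, the interferon-stimulated response element, in front of its target genes. The products block viruses at several steps: they sense foreign RNA, stop translation, hold particles at the membrane and attach the small modifier ISG15 to proteins. Many cells keep a low level of these genes without added interferon.

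The element is shown first, because it is what most of the 42 genes share in their DNA. RefSeq promoter windows (GRCh38.p14, 250 bases before to 50 after the start) matched 35 of the 42 genes. MX2, OAS2, OASL, IFIT2, IFITM2, IRF7 and USP18 had no window. On either strand, its core (GAAA, any 2 bases, GAAA) was present in 24 of the 35 windows (68.6%) and in 1255 of all 35116 windows (3.57%). A stricter form, the core followed directly by CT, was in 15 windows (42.9%) against 0.273% of all. TTCNNNGAA, the palindromic gamma-activated element, was in 12 windows (34.3%) against 7.66%. GGAATG, the core that TEAD factors bind with YAP, was in 6 windows (17.1%), near the 14.0% of all windows. A match is a run of letters and not a shown binding site. The 60-base stretches below run 5′ to 3′ on the gene's strand, with each match of the core on either strand in capitals. ISG15, MX1, IFIT1 and IFI6 are shown as classical response genes, and BST2 and HERC5 as genes that differed between the lines in opposite directions.
ISG15, chr1:1013359-1013418, plus strand: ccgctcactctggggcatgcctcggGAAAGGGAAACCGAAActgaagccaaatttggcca
MX1, chr21:41431829-41431888, plus strand: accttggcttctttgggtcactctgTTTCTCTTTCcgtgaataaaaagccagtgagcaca
IFIT1, chr10:89392482-89392541, plus strand: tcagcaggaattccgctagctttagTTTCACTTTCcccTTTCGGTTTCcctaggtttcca
IFI6, chr1:27672314-27672373, minus strand: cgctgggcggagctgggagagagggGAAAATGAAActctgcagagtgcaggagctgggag
BST2, chr19:17405726-17405785, minus strand: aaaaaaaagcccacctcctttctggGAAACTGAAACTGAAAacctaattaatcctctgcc
HERC5, chr4:88456969-88457028, plus strand: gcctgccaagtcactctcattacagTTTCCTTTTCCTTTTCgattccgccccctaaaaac
HERC5 carries overlapping matches like ISG15 and BST2, and its level went the other way between the lines, as the values below show. A link between matches and direction was not tested.

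The libraries held 24477592 to 25993413 counts, and mitochondrial genes took 3.10% to 3.40% of them. YAP1, whose row can count the endogenous gene and the transgene together, was at 275 ± 89.1 CPM in GFP cells without doxycycline, 272 ± 82.2 with it, 314 ± 82.1 in YAP5SA cells without it and 1466 ± 432 with it (CPM, counts scaled to library size by TMM; SD, n = 3). Of 10 podocyte markers, 7 could be tested and 1 had no count in any library. SYNPO stood at 400 to 550 CPM, and NPHS1 and WT1 were among those too low to test. Summed levels of 10 leukocyte markers were 2.06 to 2.77 CPM in the GFP groups and 1.38 to 4.26 CPM in the YAP5SA groups, with MS4A1, NKG7 and LILRA4 at 0 in every library. Interferon ligands were close to absent: IFNA1, IFNA2, IFNW1, IFNG and IFNL2 had no read in any library, IFNB1 had 2 reads over the 12 libraries and IFNE, the most counted, had 47. The receptor was present, with IFNAR1 at 86.7 to 105 CPM and IFNAR2 at 19.6 to 27.9 CPM.

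The 42 genes were expressed over a wide range. Per kilobase of exon, LGALS3BP, a secreted glycoprotein, was highest at 140 CPM per kb, followed by IFI6, a mitochondrial protein, at 112, BST2 (tetherin) at 88.0, IFITM2 at 72.9, IFITM3 at 56.0 and ISG15 at 43.2. ISG20, an exonuclease, was lowest at 0.21. The mean log2(CPM + 1) over the 42 genes was 4.82 ± 0.20 in GFP cells without doxycycline, 4.64 ± 0.12 with it, 4.91 ± 0.24 in YAP5SA cells without it and 5.0 ± 0.27 with it (SD, n = 3). These 4 group ranges overlapped. Single genes varied most for IFIT1, which blocks translation of viral RNA and was 6.35-fold higher in its highest library than in its lowest. RSAD2 (viperin) spanned 5.54-fold, IFI6 3.58-fold and MX2 3.50-fold.

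**Figure D1:**
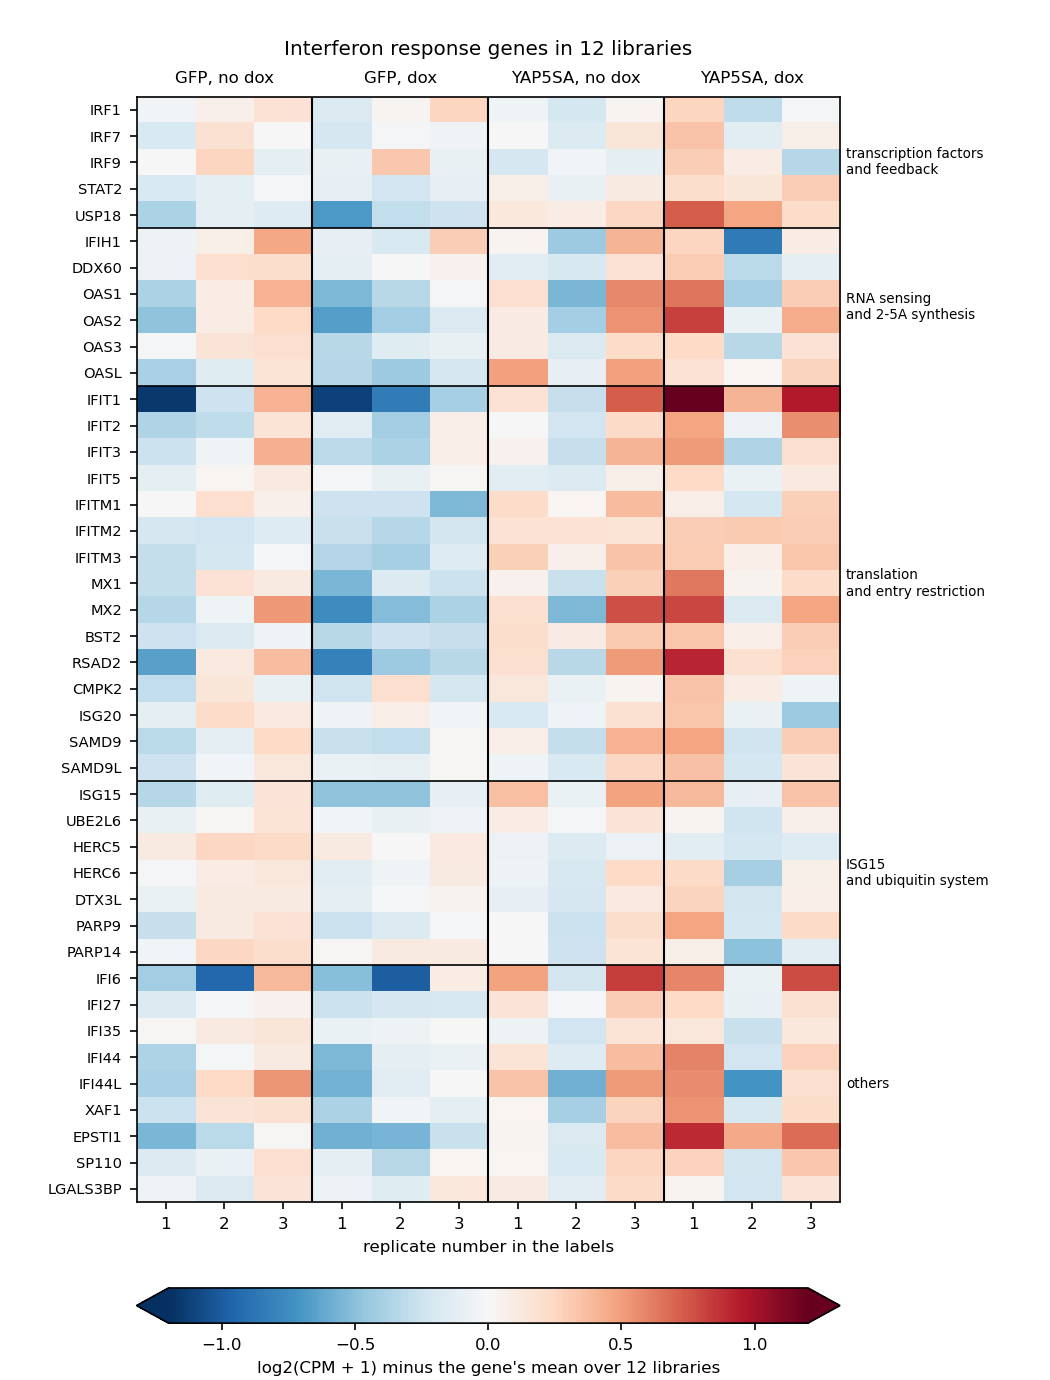
Level of each of the 42 genes in each of the 12 libraries, as log2(CPM + 1) minus the gene's mean over all libraries, with genes in rows by role and libraries in columns by group and replicate number; colours saturate at the ends of the scale. IFIT1, MX2, RSAD2 and IFI6 span the widest ranges, and in the YAP5SA groups the column of replicate 2 is low for most genes.

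The comparison of the lines with doxycycline asks how cells with induced YAP5SA differ from cells with induced eGFP. Here 14 of the 42 genes were higher in YAP5SA cells and 1 was lower (edgeR quasi-likelihood test, Benjamini-Hochberg adjusted p below 0.05). The share called, 35.7%, is near the 38.3% of all genes tested. By direction, 19.9% of all genes were called higher and 18.4% lower. The median log2 fold change was 0.36 over the 42 genes and -0.01 over all genes, and 36 of the 42 lay above 0 (48.8% of all genes). By role, the rises were 7 of 15 restriction factors, 2 of 5 factors and feedback genes, 2 of 6 sensing and synthesis genes, 1 of 7 ISG15 and ubiquitin genes and 2 of 9 others. The roles were not compared by a test.

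Among the transcription factors and feedback genes, 2 of 5 were higher. USP18, which removes ISG15 from proteins and dampens the receptor, was at 3.64, 5.08 and 5.31 CPM in the GFP libraries and at 11.4, 9.39 and 7.69 CPM in the YAP5SA libraries with doxycycline (replicates 1 to 3). Every YAP5SA library was above every GFP library, though replicate 1 was lowest in one line and highest in the other. USP18 was higher by 1.02 ± 0.16 on the log2 scale (SE, edgeR adjusted p = 0.000254). STAT2, the ISGF3 subunit, was at 97.6, 89.2 and 97.8 CPM against 121, 116 and 128 CPM, with no overlap and a log2 fold change of 0.36 ± 0.06 (edgeR adjusted p = 0.000640). IRF1 (-0.06), IRF7 (0.20) and IRF9 (-0.03) did not pass the test.

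The next role joins RNA sensors with the OAS family, of which only some members make 2-5A, the activator of RNase L. Of its 6 genes, OASL (0.74 ± 0.26) and OAS2 (0.89 ± 0.31) passed the test. OAS2 passed at an edgeR adjusted p of 0.0499. OAS2 and OASL were outside the 12 genes with the smallest p and are named after their values were seen.

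Restriction factors gave the largest differences. IFIT1 was at 8.31, 10.3 and 14.3 CPM in GFP and at 51.1, 25.9 and 38.1 CPM in YAP5SA libraries with doxycycline. The groups did not overlap, and replicate 1 held both the lowest and the highest of the 6 values. The log2 fold change was 1.81 ± 0.45 (edgeR adjusted p = 0.0116). RSAD2 rose by 1.43 ± 0.42 from a low level of 1.03 to 1.82 CPM in the GFP libraries. MX1, a GTPase that traps viral nucleocapsids, was at 59.8, 78.5 and 73.4 CPM against 137, 90.8 and 103 CPM (0.64 ± 0.20, edgeR adjusted p = 0.0271). Exons on the opposite strand overlap MX1, and reads of both strands may be counted there.

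IFITM2, which hinders fusion of virus and endosome, was at 91.9, 87.3 and 94.7 CPM in GFP and at 136, 138 and 137 CPM in YAP5SA cells with doxycycline. The libraries of each group lay close together and far from the other group, and the log2 fold change was 0.59 ± 0.04 (edgeR adjusted p = 1.98e-07). BST2, which tethers budding virions, was at 76.6, 81.7 and 80.0 CPM against 122, 102 and 119 CPM (0.53 ± 0.07, edgeR adjusted p = 0.000103). IFITM3 was higher by 0.55 ± 0.10 and IFITM1 by 0.47 ± 0.15. IFITM1, IFITM2 and IFITM3 are near-identical neighbours on chromosome 11, and exons of IFITM1 and IFITM2 overlap on the same strand, so counts may be split among them.

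ISG15 itself was at 28.1, 28.1 and 37.0 CPM in GFP and at 52.3, 36.8 and 50.4 CPM in YAP5SA cells with doxycycline. Replicate 2 of the YAP5SA group lay just below replicate 3 of the GFP group, so the groups overlapped. The log2 fold change was 0.58 ± 0.20 (edgeR adjusted p = 0.0413). HERC5, the main ligase that attaches ISG15 to proteins, was the one gene lower, at 26.6, 24.6 and 26.8 CPM against 22.3, 21.2 and 22.0 CPM. The groups did not overlap, and the log2 fold change was -0.25 ± 0.06 (edgeR adjusted p = 0.00431).

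Of the other genes, EPSTI1, an epithelial-stromal interaction gene, was at 14.5, 14.7 and 18.3 CPM in GFP and at 42, 30.7 and 35.9 CPM in YAP5SA cells with doxycycline. That is a log2 fold change of 1.19 ± 0.19 with no overlap (edgeR adjusted p = 0.000533). IFI27 was higher by 0.34 ± 0.09 (edgeR adjusted p = 0.0118). IFI6 ranged from 44.4 to 94.7 CPM in GFP and from 84.4 to 154 CPM in YAP5SA libraries, groups that overlapped, and its log2 fold change of 0.88 ± 0.44 did not pass the test. The counts of higher genes rested partly on single libraries: 7 were called without replicate 1 of YAP5SA with doxycycline and 9 without replicate 1 of GFP with doxycycline. Leaving out the first of these lost the calls of IFI27, RSAD2, MX1, IFITM1, ISG15, OAS2 and OASL, and leaving out the second those of RSAD2, MX1, ISG15, OAS2 and OASL. In the treated groups, calls were also lost without GFP replicate 2 (ISG15, OAS2, OASL), GFP replicate 3 (MX1, IFITM1, OAS2) or YAP5SA replicate 3 (IFITM1, ISG15, OAS2, OASL). OAS2 and ISG15 were also lost without untreated GFP replicate 2 or untreated YAP5SA replicate 1, and OAS2 without untreated GFP replicate 3.

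**Figure D2:**
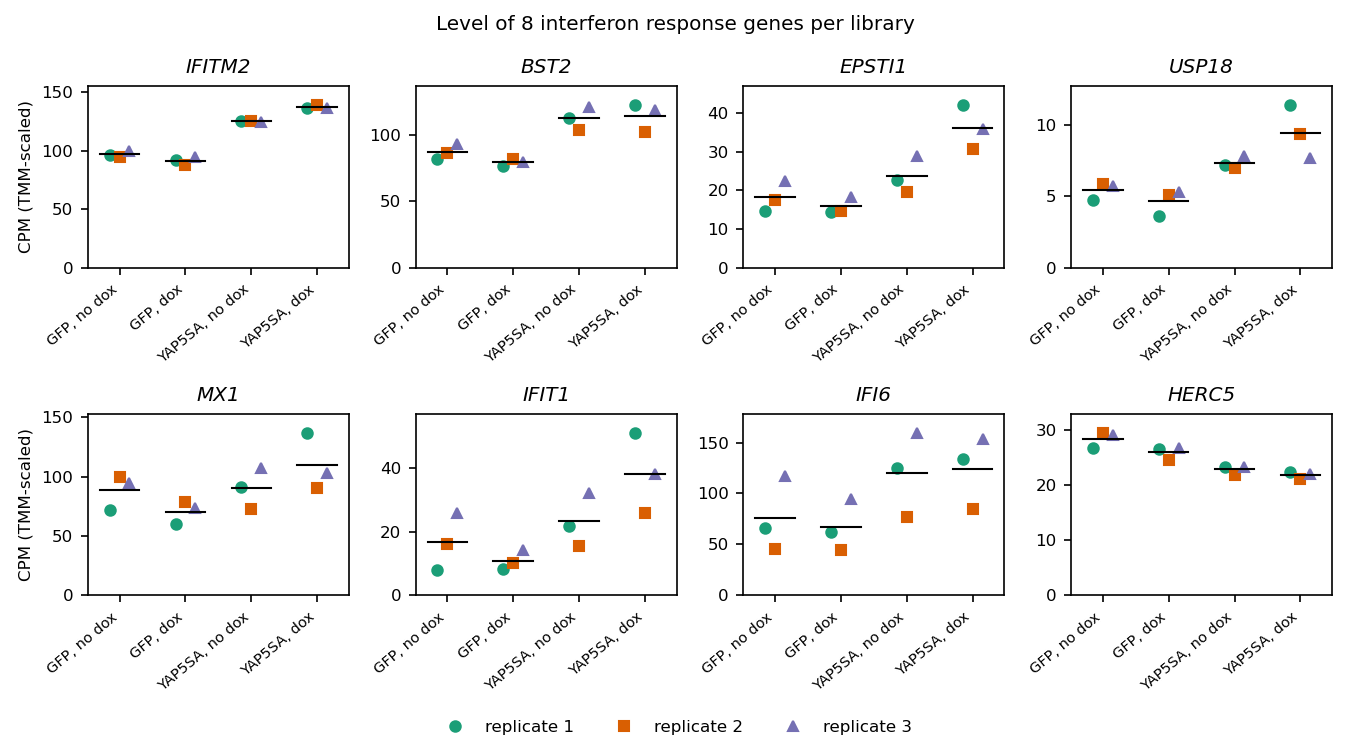
TMM-scaled CPM of 8 genes in each library, with groups on the x axis, 1 point for each library shaped and coloured by replicate number, and a line at the mean of 3 libraries. IFITM2, BST2 and HERC5 separate the lines with and without doxycycline, while for IFI6 replicate 3 is above replicates 1 and 2 in every group.

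Without doxycycline, which asks how the lines differed before induction, 3 genes were higher in the YAP5SA line and 1 lower, or 9.52% of the 42 against 8.65% of all genes (6.04% higher, 2.61% lower). The 4 genes were all called in the same direction with doxycycline too, though the tests use different libraries of the same lines. With doxycycline 38.3% of all genes were called, and the share of all genes called in both comparisons was not counted. IFITM2 was at 96.3, 94.4 and 99.2 CPM in the GFP line and at 125, 125 and 124 CPM in the YAP5SA line. The log2 fold change was 0.37 ± 0.04 (edgeR adjusted p = 0.000143). BST2 was at 81.8, 86.2 and 93.5 CPM against 113, 104 and 121 CPM (0.37 ± 0.07, edgeR adjusted p = 0.00846). IFITM3 was higher by 0.41 ± 0.10 (edgeR adjusted p = 0.0260), and HERC5 was lower by 0.31 on the log2 scale, at -0.31 ± 0.06 (edgeR adjusted p = 0.00586). For these 4 genes, and for USP18, the groups did not overlap. In all, 4 of the 42 genes had every YAP5SA library above every GFP library and 1 had them below, against 16.4% and 13.1% of all genes. The median over all 42 genes was 0.07, against -0.00 over all genes tested. USP18 (0.43 ± 0.16), OASL (0.61 ± 0.24), IFI6 (0.65 ± 0.43), IFIT1 (0.48 ± 0.44), ISG15 (0.38 ± 0.20), IFI27 (0.19 ± 0.09), STAT2 (0.14 ± 0.06), MX1 (0.03 ± 0.20), IRF1 (-0.14) and IRF9 (-0.22) did not pass. The call of IFITM3 was lost when replicate 1 or 2 of the untreated GFP group, or replicate 1 or 3 of the untreated YAP5SA group, was left out.

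Induction of YAP5SA, doxycycline against none within that line, asks what the drug and the transgene change together. It called 2 of the 42 genes, 4.76% against 19.1% of all genes (9.83% higher, 9.28% lower). EPSTI1 went from 22.6, 19.5 and 28.9 CPM to 42, 30.7 and 35.9 CPM. All 3 induced libraries were above all uninduced ones, and the log2 fold change was 0.61 ± 0.18 (edgeR adjusted p = 0.0375). IFITM2 went from 125, 125 and 124 CPM to 136, 138 and 137 CPM, a rise of 0.13 ± 0.04 (edgeR adjusted p = 0.0260). STAT2 did not overlap either, at 110, 98.3 and 113 CPM against 121, 116 and 128 CPM, and missed the threshold (0.19 ± 0.06, edgeR adjusted p = 0.0584). It was called in 8 of 22 alternative fits, over which the adjusted p ran from 0.000283 to 0.205. Groups without overlap in the rising direction were 3 of the 42 genes and 17.8% of all genes. In the falling direction they were none of the 42 and 16.8% of all.

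Most classical response genes gave no call with induction. IFIT1 was at 21.8, 15.7 and 32.4 CPM without and at 51.1, 25.9 and 38.1 CPM with doxycycline, a difference of 0.72 ± 0.42 between groups that overlapped. MX1 differed by 0.28 ± 0.19, USP18 by 0.37 ± 0.15, IFIT5 by 0.18 ± 0.09, ISG15 by -0.05, IFI6 by 0.05, IFI27 by -0.03, IRF1 by 0.07, IRF7 by 0.11 and IRF9 by 0.19. The median over the 42 genes was 0.10 against -0.00. It hid unlike replicates. The median log2 ratio of doxycycline to none was 0.34 for replicate 1, 0.00 for replicate 2 and -0.09 for replicate 3, with 5, 21 and 34 of the 42 genes below 0. Over all 3 numbers, 7 of the 42 were higher each time (28.4% of all genes) and 4 lower (29.5%), though the numbers did not meet the pairing rule in this line. YAP1 in the induced libraries was 1757, 1672 and 970 CPM in the same order, and its part in this spread was not tested. Both calls were lost when replicate 1 or 2 of the untreated or replicate 1 of the treated YAP5SA group was left out. That of IFITM2 was also lost without untreated replicate 3 or treated replicate 2, and that of EPSTI1 without treated replicate 3 or replicate 2 of either GFP group. Neither gene was called with no filter on low counts or with the groups fitted alone.

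**Figure D3:**
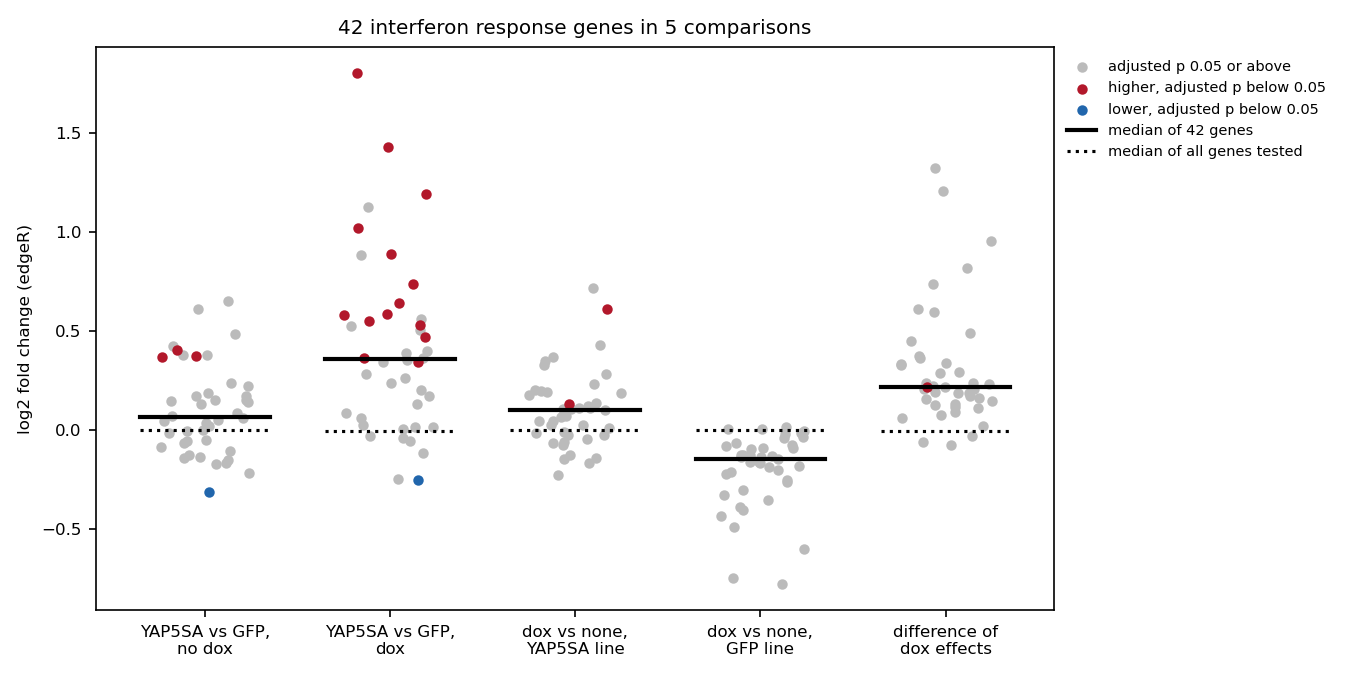
Log2 fold change from edgeR for each of the 42 genes in 5 comparisons; red and blue points passed an adjusted p of 0.05, the solid bar is the median of the 42 genes and the dotted bar the median of all 17470 genes tested. The solid bar lies at 0.36 between the lines with doxycycline and at -0.15 for doxycycline in the GFP line, where no point is coloured.

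Doxycycline in the GFP line is the control for the drug and for a neutral transgene. In the fit over all 12 libraries no gene passed, 0 of 17470 (0%), while 282 genes had an unadjusted p below 0.05. DESeq2 called 1 gene and limma-voom 0. None of the 42 genes passed, and 2 had an unadjusted p below 0.05. They leaned low nonetheless: 39 of 42 fold changes were below 0 (49.8% of all genes), with a median of -0.15 against 0.00 over all genes. For 6 genes (MX2, OAS3, IFI27, IFI35, IFITM1 and BST2) every treated library was below every untreated one, against 2.87% of all genes in that direction. None of the 42 had every treated library above, against 3.35% of all genes. The smallest p was that of IFITM1 (-0.49 ± 0.15, edgeR adjusted p = 1.00), and HERC5 (-0.13), IFITM2 (-0.08), OAS3 (-0.30), IFI27 (-0.18) and BST2 (-0.13) came next.

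The replicate numbers bear on this comparison, since same-numbered GFP libraries deviated together from their group means. They were therefore treated as pairs. With the number as a block in the 6 GFP libraries, 20 genes passed (0.114%), 14 of them lower (0.0801%) and 6 higher (0.0343%). Of those 14, 11 were interferon response genes, and none of the 42 was higher. Earlier results of these data had shown a fall of such genes in a paired fit, so this count is not independent evidence.

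OAS3, which makes the 2-5A messenger, went from 111, 126 and 130 CPM to 89.4, 102 and 106 CPM. The fall was nearly the same in the 3 pairs, at -0.31, -0.30 and -0.29 on the log2 scale, and the paired estimate was -0.30 ± 0.03 (edgeR adjusted p = 1.13e-08). OAS1 (-0.38 ± 0.07) and OAS2 (-0.40 ± 0.06) fell as well, which makes 3 of the 6 sensing and synthesis genes.

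Among restriction factors 4 of 15 fell. MX1 went from 71.9, 99.7 and 94.7 CPM to 59.8, 78.5 and 73.4 CPM, or -0.27, -0.34 and -0.37 by pair. The groups overlapped although every pair fell, since replicate 1 was low in both, and the paired estimate was -0.33 ± 0.03 (edgeR adjusted p = 2.61e-08). MX2 (-0.74 ± 0.11), IFITM1 (-0.49 ± 0.10) and IFIT3 (-0.26 ± 0.05) also fell. IFIT1 had ratios of 0.05, -0.64 and -0.86 in pairs 1, 2 and 3 and was not called.

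ISG15 went from 31.1, 35.8 and 44.2 CPM to 28.1, 28.1 and 37.0 CPM, lower in each pair, with a paired estimate of -0.25 ± 0.05 (edgeR adjusted p = 0.00692). It was 1 of the 7 ISG15 and ubiquitin genes called. IFI27 (-0.18 ± 0.04), IFI44L (-0.43 ± 0.09) and XAF1 (-0.21 ± 0.05), a pro-apoptotic factor, fell among the other 9. No transcription factor or feedback gene passed. MX2, OAS1, OAS2, IFIT3, IFI44L and XAF1 are named after their paired values were seen.

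Over all pairs, 26 of the 42 genes were lower with doxycycline in all 3 (12.4% of all genes) and none was higher in all 3 (13.7%). The median log2 ratio was -0.06, -0.20 and -0.20 in pairs 1, 2 and 3, with 29, 39 and 40 of the 42 genes below 0. The paired calls depended on how the spread was estimated. With the number as a block within each line over all 12 libraries, 3 genes passed, of which OAS3 was the single interferon response gene (-0.30 ± 0.04, edgeR adjusted p = 0.0132). Without pair 1, 2 or 3, the 2 remaining pairs called 23, 18 and 77 genes in all. Of these, 16, 6 and 4 were among the 42, all lower, with OAS3, MX1 and OAS2 called each time.

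The difference between the doxycycline effects of the lines, the interaction, asks what is left of the induction once the control line is taken into account. It called 1 of the 42 genes, 2.38% against 6.88% of all genes (3.6% higher, 3.28% lower). IFITM2 rose by 0.13 in the YAP5SA line and had -0.08 in the GFP line, a difference of 0.21 ± 0.05 (edgeR adjusted p = 0.0302). The differences were above 0 for 39 of the 42 genes (49.2% of all genes), with a median of 0.22 against -0.00. EPSTI1 (0.82 ± 0.26, edgeR adjusted p = 0.0996), USP18 (0.59 ± 0.23), STAT2 (0.22 ± 0.09), MX1 (0.61 ± 0.28), RSAD2 (1.21 ± 0.58) and IFIT1 (1.32 ± 0.63) did not pass. The call of IFITM2 was lost when any 1 of 9 libraries was left out: replicates 1 and 3 of untreated and 1 and 2 of treated GFP, all 3 of untreated and 1 and 2 of treated YAP5SA. With the number as a block within each line, 11 of the 42 genes were called, all more positive in the YAP5SA line. That fit called 3668 of all 17470 genes tested, in either direction. The 11 were OAS3, IFIT2, IFI6, IFITM2, IFITM3, ISG15, STAT2, USP18, RSAD2, BST2 and EPSTI1. The numbers met the pairing rule in the GFP line alone.

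Replicate number was then tested in its own right within each line, with doxycycline as a covariate. In the GFP line 31 of the 42 genes (73.8%) differed between numbers, against 21.2% of all genes (edgeR F test of both replicate terms, adjusted p below 0.05). DESeq2 called 19 of them. Replicate 3 was highest with and without doxycycline for 29 genes (22.5% of all genes), and replicate 1 was lowest in both for 25 (8.73%). The median log2 ratio was 0.14 for replicate 2 over 1 and 0.25 for replicate 3 over 1, against 0.00 and 0.00 over all genes.

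IFI6 had the smallest p. In GFP cells it was at 66.3, 45.9 and 117 CPM without and 62.4, 44.4 and 94.7 CPM with doxycycline. Replicate 3 was highest and replicate 2 lowest in both groups, and replicate 3 exceeded replicate 2 by 1.22 on the log2 scale (edgeR adjusted p of the number = 2.69e-15). LGALS3BP followed the same order, with replicate 3 over 2 at 0.30 (edgeR adjusted p = 4.88e-11).

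Another order was seen for MX1, where replicate 1 was lowest and replicate 2 highest in both groups, and replicate 2 exceeded replicate 1 by 0.43 (edgeR adjusted p = 8.09e-11). In ISG15, OAS1, OAS2 and IFI44L replicate 1 was lowest and replicate 3 highest in both groups, by 0.45, 0.72, 0.65 and 0.87 for replicate 3 over 1. IFIT3 (0.56), IFIH1, the RNA sensor MDA5 (0.48), SAMD9 (0.43), XAF1 (0.37) and OAS3 (0.23) complete the 12 with the smallest p. By role, the number passed for 4 of 5 factors and feedback genes, 5 of 6 sensing and synthesis genes, 9 of 15 restriction factors, 5 of 7 ISG15 and ubiquitin genes and 8 of 9 others. IFIT1, at 1.28 for replicate 3 over 1, did not pass (edgeR adjusted p = 0.0696).

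The YAP5SA line gave another order. There 13 of the 42 genes (31.0%) differed between numbers, against 10.1% of all genes, and replicate 2 was lowest with and without doxycycline for 37 of the 42 (22.6% of all genes). The median log2 ratio of replicate 2 over 1 was -0.37. IFI6 was again first by p, at 125, 76.5 and 159 CPM without and 134, 84.4 and 154 CPM with doxycycline (edgeR adjusted p = 1.08e-06). IFI44L fell furthest in replicate 2, by 1.27 against replicate 1. Called in both lines were 10 genes: OAS3, IFIT2, IFI6, IFI27, IFI44, IFI44L, IFITM3, ISG15, SP110 and LGALS3BP. The share of all genes called in both lines was not counted, so this overlap is given as a list only. The count for the YAP5SA line moved with single libraries, to 35 and 7 when untreated replicate 1 or 2 was left out and to 31 and 5 when treated replicate 1 or 2 was. The count over all genes moved as well, from 1765 to 3128 and 709 without untreated replicate 1 or 2. It was 521 without treated replicate 2.

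Other values moved with the number. COL1A1 was at 1832, 1194 and 2258 CPM in GFP cells without doxycycline and 1792, 1244 and 2376 CPM with it, and the summed fibroblast markers ranged from 1263 to 2684 CPM over the 12 libraries. YAP1 was at 173, 332 and 321 CPM and at 177, 326 and 312 CPM in the same libraries. Their part in the differences among replicates was not tested.

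**Figure D4:**
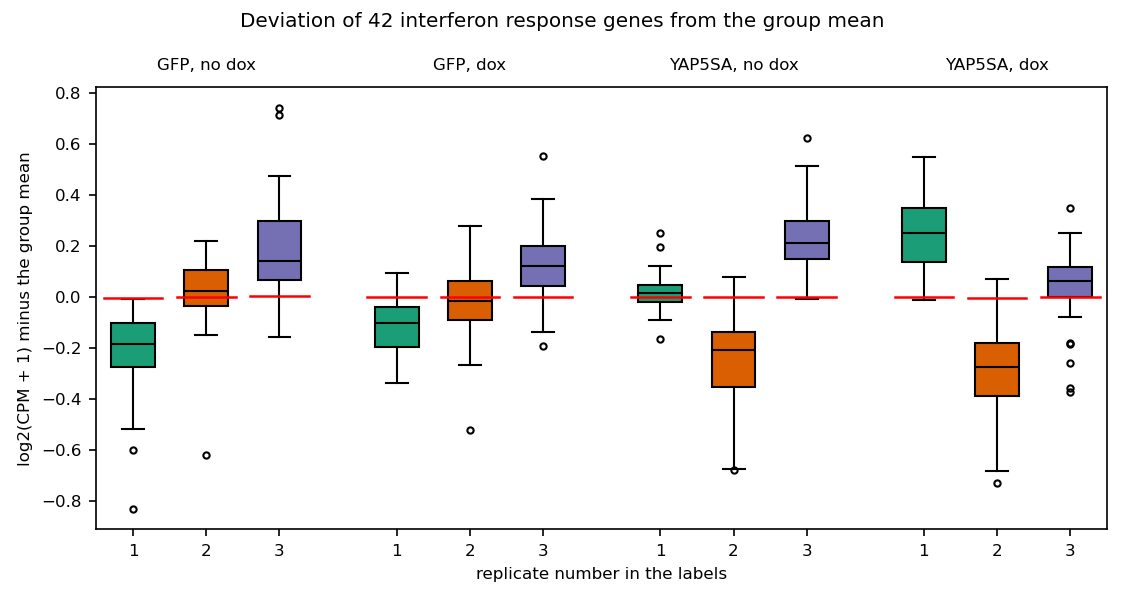
Deviation of the 42 genes from their group mean in log2(CPM + 1) for each library (box, quartiles; line, median; whiskers, 1.5 times the interquartile range; circles, genes beyond), with the median over all genes tested as a red line. In the GFP groups the box medians go from -0.18 and -0.10 in replicate 1 to 0.14 and 0.12 in replicate 3; in the YAP5SA groups replicate 2 is lowest, at -0.21 and -0.27.

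The promoter windows were set beside these readouts. Of 24 genes with a match of the core, 18 were called by replicate number in the GFP line, 7 fell in the paired GFP fit and 9 were higher in YAP5SA cells with doxycycline. Of 11 genes with a window and no match, the counts were 8, 2 and 1. The median log2 fold change with induction was 0.03 with a match and 0.10 without. The genes with and without a match were not compared by a test.

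A further 87 genes of the pathway, listed beside the 42, gave context, and 70 of them could be tested. Induction of YAP5SA raised 7 and lowered 12 (9.83% and 9.28% of all genes), the interaction was positive for 4 and negative for 3 (3.6% and 3.28%), and doxycycline in the GFP line changed none. Without doxycycline 2 were higher and 4 lower in the YAP5SA line (6.04% and 2.61% of all genes), and with it 13 were higher and 23 lower (19.9% and 18.4%). Among further transcription factors, IRF3, which switches on the interferon genes, fell with induction at -0.34 ± 0.05 (edgeR adjusted p = 0.000708) and IRF2 at -0.32 ± 0.07 (edgeR adjusted p = 0.00517). SOCS1, which inhibits the receptor's kinases, fell from 3.77 to 1.84 CPM, at -1.03 ± 0.15 (edgeR adjusted p = 0.000436).

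Of 9 receptor chains and kinases, IFNGR2, a chain of the interferon gamma receptor, rose by 0.47 ± 0.11 with induction (edgeR adjusted p = 0.00910), and no other passed. Among 38 further interferon-stimulated genes tested, 5 rose and 6 fell, against the same 9.83% and 9.28% of all genes. TRIM22, an antiviral ubiquitin ligase, rose from 202 to 259 CPM (0.36 ± 0.04, edgeR adjusted p = 3.04e-05), and PNPT1 and XRN1, both RNA exonucleases, rose by 0.35 and 0.28. GBP2, a GTPase induced mainly by interferon gamma, was at 20.1, 17.1 and 22.7 CPM without and at 11.9, 6.90 and 11.7 CPM with doxycycline, a log2 fold change of -0.97 ± 0.17 without overlap (edgeR adjusted p = 0.00193).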

How the data were processed

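RNA of 12 libraries, 3 in each of 4 groups, was measured by poly(A) RNA-seq from 1000 ng of total RNA, per the labels' protocols. The authors deposited 1 table of whole-number counts per gene, 24477592 to 25993413 per library. The submitters' processing notes name GRCh38 (hg38) and the tools DRAGEN, Subread with featureCounts, DESeq2 and limma. For these tools the version, role and strand setting were not given in the sources used here. Without strand, a gene and its antisense neighbour cannot be told apart, which touches MX1, OAS1, PARP9 and DTX3L, RSAD2 and CMPK2, IFIT2 and IRF1.

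The test was that of edgeR 4.0.16 (R 4.3.3), with filterByExpr on the groups (17470 genes kept), TMM scaling, and a robust quasi-likelihood fit over all 12 libraries with group as the single term and 8 residual degrees of freedom. A gene was called where its p, adjusted after Benjamini and Hochberg over all genes tested, was below 0.05. Replicate number was tested in the 6 libraries of each line (2 residual degrees of freedom, spread moderated over genes). On simulated data the within-line test of replicate number made more false calls than its threshold implies. Gene positions and exon lengths came from GENCODE 29 and promoter windows from RefSeq.

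The 42 genes, the other lists and the tests were chosen with earlier results of these data known. Genes named in a comparison are those called (at most the 12 with the smallest p; the 6 smallest where fewer than 6 were called), plus ISG15, MX1, IFIT1, IFI6, IFI27, IRF9, IRF1, STAT2 and IRF7; others are marked where named. From the further pathway lists at most 4 called genes a list are named, and some genes of the further lists are not reported here.

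The labels' replicate numbers were the source of the pairing. The rule, a correlation of deviations above 0.1 for every number, was met between the GFP groups (0.25, 0.60, 0.58) and not in the YAP5SA line (-0.10 for number 1) or between lines. No 2 libraries of a group were identical, and their counts differed by more than counting noise. Alternatives were RLE and upper-quartile scaling, 2 other filters, DESeq2 1.42.0, limma-voom (limma 3.58.1), the groups alone, replicate blocks and each library left out. The block within each line, other scalings of the pair counts and the paired fits without 1 pair were chosen after seeing the data.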

Additional observations from a re-analysis of the deposited data

Results flagged for a closer look

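One result among the interferon response genes differed between the lines by a test of the difference itself. For IFITM2 the doxycycline effect in the YAP5SA line minus that in the GFP line was 0.21 ± 0.05 on the log2 scale (SE, edgeR interaction test, adjusted p = 0.0302). IFITM2 rose in 3 of 3 same-numbered comparisons in the YAP5SA line, by 0.12, 0.14 and 0.14. Every treated library lay above every untreated one there, so each of these comparisons had to rise. The numbers did not meet the pairing rule in that line, and 28.4% of all genes rose in all 3. In the GFP line the ratios were -0.07, -0.11 and -0.07. The interaction was not called in 10 of 20 alternative fits, where the adjusted p reached 0.0813, and its size stayed between 0.18 and 0.24.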

How the results depend on the processing

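Of the 22 single-gene calls among the 42 genes in the 5 comparisons over 12 libraries, 11 held under every alternative tried for them, 11 were lost under at least 1 and 0 changed sign. OAS2 between the lines with doxycycline was lost under 12 of 20 alternatives, RLE and upper-quartile scaling among them (edgeR adjusted p = 0.0501 and 0.0522). In the same comparison ISG15 was lost under 7 of 20, MX1 and OASL under 5 each, RSAD2 and IFITM1 under 3 each and IFI27 under 1. Scaling by RLE or upper quartile and the stricter filter moved no count of calls by over 1.5 times. With no filter on low counts, induction called 1 of the 42 genes higher. That gene was STAT2 (edgeR adjusted p = 0.0253), while EPSTI1 (edgeR adjusted p = 0.137) and IFITM2 (edgeR adjusted p = 0.0882) were lost. That setting also lost RSAD2, MX1, ISG15 and OAS2 between the lines with doxycycline and IFITM3 between the lines without it. The interaction called 0, doxycycline in GFP cells 3 genes in all, and replicate number in the YAP5SA line 2805 genes and 30 of the 42. DESeq2 called 1 gene for doxycycline in GFP cells, 2 of the 42 for the interaction, 1090 genes and 19 of the 42 for replicate number in the GFP line and 692 genes in the YAP5SA line. The groups alone gave 0 for induction. With a pseudocount of 4 the mean level was 5.06 and 4.92 in GFP cells without and with doxycycline.

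With a replicate block over 12 libraries, induction called 4 of the 42 higher, the interaction 3 (2418 genes), GFP doxycycline 1 gene, and the lines without doxycycline 6 (2994 genes). That block also called IFI6 between the lines, at 0.91 with doxycycline (edgeR adjusted p = 0.000470) and 0.68 without it (edgeR adjusted p = 0.00699), though same-numbered libraries of the lines did not meet the pairing rule. The replicate block in 1 line alone gave 20 genes and 11 of the 42 lower for GFP doxycycline, and 5061 genes and 5 of the 42 higher for induction. Without pair 1, 2 or 3 the GFP block gave 23, 18 and 77 genes and 16, 6 and 4 of the 42 lower, with IRF1 at 0.034 without pair 1 and IRF9 at -0.049 and -0.0055 without pairs 2 and 3. The replicate block within each line gave 5957 genes, 6 of the 42 higher and 1 lower for induction, 3 genes and 1 of the 42 for GFP doxycycline, and 3668 genes and 11 of the 42 for the interaction. In limma-voom IRF9 was at -0.0044 for GFP doxycycline.

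Leaving out 1 library at a time gave 0 to 3 of the 42 higher for induction, 0 to 1 for the interaction (741 to 1397 genes) and 7 to 20 between the lines with doxycycline. The lines without doxycycline had 564 to 1678 genes called. Replicate number had 2173 to 4458 genes in the GFP line, and 521 to 3128 genes and 5 to 35 of the 42 in the YAP5SA line. Uncalled genes changed sign. For GFP doxycycline, IRF9 ranged from -0.19 to 0.15, IRF1 from -0.14 to 0.080, IRF7 from -0.18 to 0.010, IFI6 from -0.52 to 0.26 and STAT2 from -0.075 to 0.013. For induction, IFI6 ranged from -0.19 to 0.30, IRF1 from -0.089 to 0.20, IRF9 from -0.0015 to 0.39, IRF7 from -0.029 to 0.22, ISG15 from -0.20 to 0.094 and IFI27 from -0.11 to 0.065. For the interaction, IFI6 ranged from -0.21 to 0.56, IRF1 from -0.067 to 0.22 and IRF9 from -0.0053 to 0.39. Between the lines, MX1 ranged from -0.11 to 0.17 and IRF7 from -0.094 to 0.10 without doxycycline, and IRF1 from -0.21 to 0.075 and IRF9 from -0.22 to 0.17 with it. The cause of these shifts was not tested.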
